A study of Arabidopsis thaliana with 24 samples.

Results

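The 10 Arabidopsis loci described here encode subunits a, b, c, d, e, f, g, h, i and k of eukaryotic translation initiation factor 3 (eIF3). They are a list of loci that was drawn up by subunit, by a rule that takes no measured value, and were matched to the array by the locus at the start of the feature identifier. Each locus had 1 feature, so 10 of 30386 gene features are described, and no filter on low values was applied. The loci are AT4G11420 (eIF3a), AT5G27640 (eIF3b), AT3G56150 (eIF3c), AT4G20980 (eIF3d), AT3G57290 (eIF3e), AT2G39990 (eIF3f), AT3G11400 (eIF3g), AT1G10840 (eIF3h), AT2G46280 (eIF3i) and AT4G33250 (eIF3k). A reference gene table gave 9 of the 10 a gene symbol. It held none for AT4G20980, which is called eIF3d only because the list does, and it gave AT2G39990 the symbol EIF2, with eIF3f among the synonyms. For 4 of the 10, the feature identifier also carried a position. The eIF3a feature lay on the minus strand of chromosome 4 from 6947476 to 6952445, and that of eIF3k on the minus strand of chromosome 4 from 16038867 to 16040711. The feature for eIF3e lay on the minus strand of chromosome 3 from 21196550 to 21199183, and that for eIF3f on the minus strand of chromosome 2 from 16698092 to 16700012. The genome build of these positions is not given in the sources used here.

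eIF3 is the largest of the initiation factors. It binds the small ribosomal subunit, keeps it apart from the large subunit until a start codon is found, and brings together the initiator tRNA complex, the other factors and the mRNA. Subunits a, b and c form its conserved core. Subunits i, a WD-repeat protein, and g, which carries an RNA recognition motif, are attached through b. Subunits a, c, e and k carry PCI domains and f and h carry MPN domains, and these fold families are shared with the COP9 signalosome and the lid of the proteasome. Human eIF3d can bind the mRNA cap. In Arabidopsis, eIF3h is needed for efficient reinitiation after upstream open reading frames.

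Col-0 seedlings were grown in liquid culture in constant light, and were 10 days old by the study's methods and 7 days old by the sample labels. Sucrose or, as the osmotic control, sorbitol was then given at 150 mM for 6 h, either in continued light or in darkness. The groups are called light control, light sucrose, dark control and dark sucrose, where control means sorbitol, and none of them carried a mutation or transgene. From each of 12 cultures, 3 per treatment, total RNA and the RNA of the small polysome fraction were hybridized to AGRONOMICS1 tiling arrays, which gave 24 arrays in 8 groups of 3. The question of the design was how sugar and light, taken apart, alter mRNA levels and their presence on polysomes. Total RNA gives the steady-state level, and the RNA of small polysomes the polysomal level. The polysomal occupancy is the polysomal minus the steady-state level of the same culture on the log2 scale. All values are deposited log2 levels, in the order of replicates 7, 8 and 9 where 3 values are given. Changes are differences on the log2 scale with their standard error (SE) and with n = 3 per group. A change was called at an adjusted p (limma, Benjamini-Hochberg over all 30386 features) under 0.05.

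The arrays had similar medians, from 5.92 to 6.06, and the means of the 10 features over 24 arrays lay above them, between 7.00 (eIF3b) and 11.39 (eIF3d). Probes of different genes differ in brightness, so the levels are compared within a gene only. The arrays of replicate 9 tended to a wider spread, with SDs around the group means of 0.270 to 0.332 over all features, against 0.205 to 0.272 in replicates 7 and 8. Markers of green tissue were detected (RCA, rubisco activase, had a level of 13.50 in the light control), and the lists of tissue markers are compared with the eIF3 values at the end. In whole seedlings, a change in the share of cells that express a gene cannot be told apart from a change in RNA per cell.

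In the light, sucrose raised the steady-state level of 9 of the 10 subunit mRNAs. The rises were moderate, between 1.395-fold (eIF3i) and 1.743-fold (eIF3b), and none passed 2-fold, as 3.73% of all features did. Among all features, 15.7% rose and 12.8% fell, and among the features at least as bright as the dimmest of the 10 it was 26.8%. The median change of the 10 was 0.59, against 0.02 over all features. No subunit mRNA fell.

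Of the core subunits, eIF3b had steady-state levels of 6.54, 6.72 and 6.62 in the light control and of 7.46, 7.67 and 7.15 in light sucrose. For eIF3a, they were 8.56, 8.67 and 8.94 without and 9.46, 9.35 and 9.11 with sucrose. The groups did not overlap in either gene, and replicate 9 had the smallest rise in both. The rises were 0.80 ± 0.14 for eIF3b (adjusted p = 0.000152) and 0.58 ± 0.11 for eIF3a (adjusted p = 0.000311). The third core subunit, eIF3c, rose by 0.60 ± 0.10 (adjusted p = 9.1e-05).

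Among the subunits bound through b, eIF3i went from 7.29, 7.43 and 7.50 to 7.83, 7.93 and 7.90, a rise of 0.48 ± 0.12 (adjusted p = 0.0037), and eIF3g rose by 0.52 ± 0.08 (adjusted p = 4.69e-05). eIF3d rose by 0.73 ± 0.11 (adjusted p = 1.97e-05) and eIF3e, a PCI subunit, by 0.69 ± 0.11 (adjusted p = 5.67e-05). For the MPN subunits, the rises were 0.61 ± 0.12 in eIF3f (adjusted p = 0.000729) and 0.55 ± 0.10 in eIF3h (adjusted p = 0.00035). The exception was the PCI subunit eIF3k, with 9.92, 9.96 and 9.89 in the light control and 10.25, 10.26 and 9.95 in light sucrose. There the sucrose array of replicate 9 lay within the range of the controls, and the difference of 0.23 ± 0.12 missed the threshold (adjusted p = 0.185). In all, the 3 sucrose arrays lay above the 3 control arrays in 9 of the 10 mRNAs, as they did in 21.5% of all features.

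**Figure D1:**
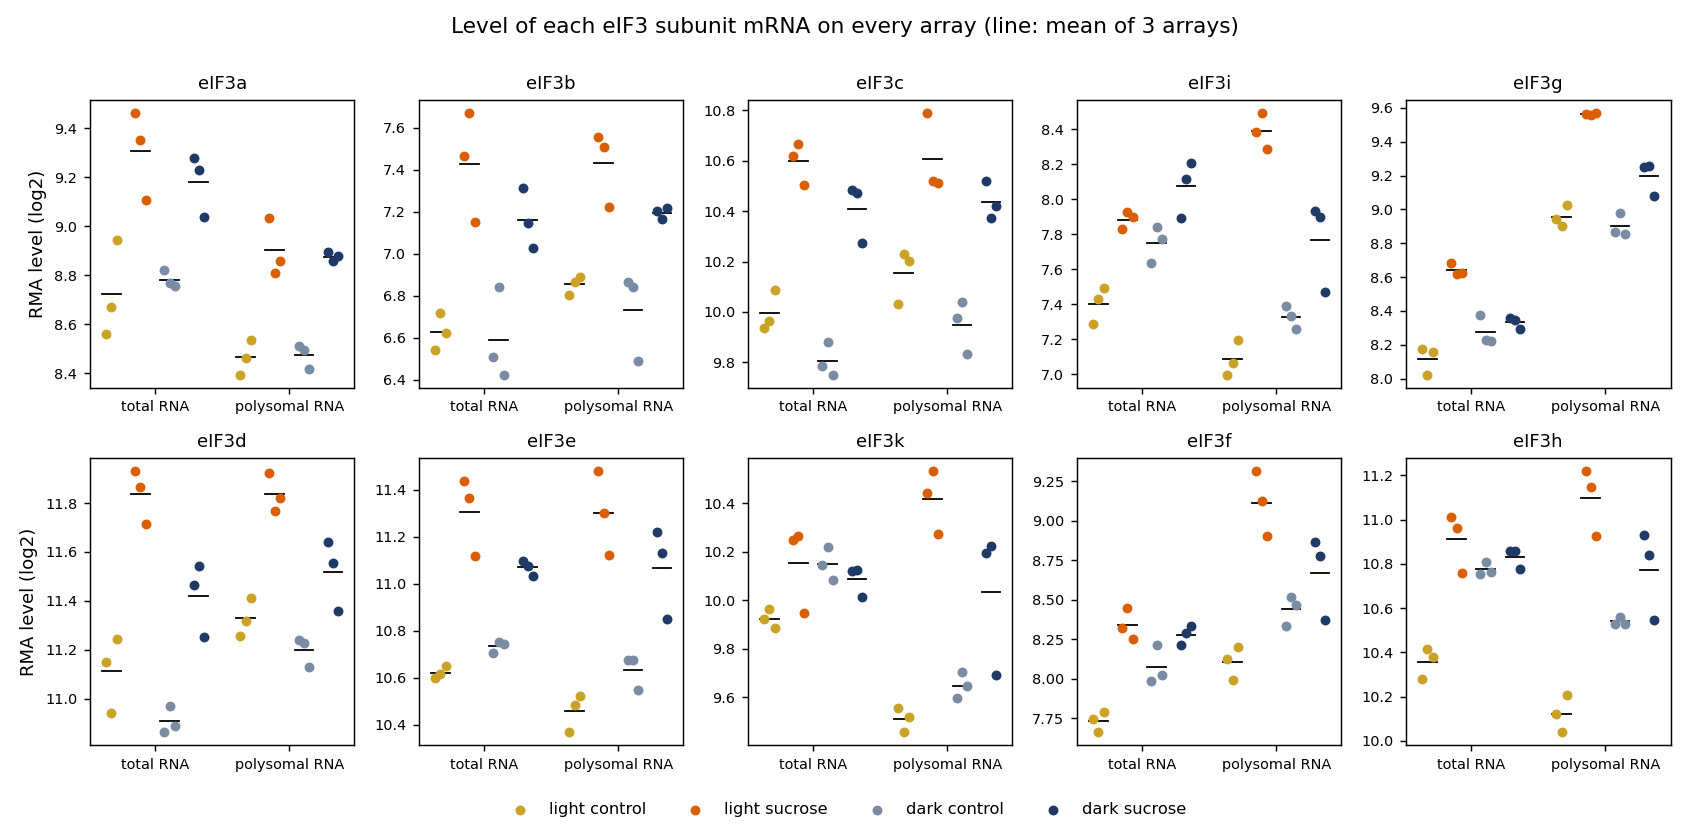
Deposited log2 level (vertical axis, its range set for each gene) of the 10 eIF3 subunit mRNAs on each of 24 arrays, by treatment (colour) and kind of RNA; points of a group run from replicate 7 to 9, and lines are means of 3 arrays. The light sucrose points lie above the light control points in 9 genes in total RNA and in all 10 in polysomal RNA.

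The polysomal levels of all 10 mRNAs rose after sucrose in the light, among which 2 passed 2-fold. Over all features, 18.5% rose (4.79% over 2-fold) and 12.8% fell, and 31.4% of those at least as bright as the dimmest member. The 3 sucrose arrays lay above the 3 control arrays in each of the 10 genes, against 23.7% of all features. The median rise was 0.72, against 0.01 over all features.

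eIF3i, with the lowest of the called rises in total RNA, had the highest here. It went from 7.00, 7.06 and 7.20 to 8.38, 8.49 and 8.29, which is 2.465-fold (1.30 ± 0.12, adjusted p = 6.75e-08). Both MPN subunits followed. eIF3f went from 8.12, 7.99 and 8.20 to 9.31, 9.12 and 8.90 (2.01-fold, adjusted p = 2.69e-06), and eIF3h from 10.12, 10.04 and 10.21 to 11.22, 11.15 and 10.92 (1.966-fold, adjusted p = 4.96e-07). eIF3k, the mRNA without a called steady-state change, went from 9.55, 9.46 and 9.52 to 10.44, 10.53 and 10.27 (1.874-fold, adjusted p = 7.15e-06). Its sucrose arrays all lay above its control arrays, also in replicate 9, whose steady-state level had not. eIF3e, also a PCI subunit, rose 1.792-fold (adjusted p = 4.71e-06). The smallest rises were those of the remaining PCI subunits, eIF3a (1.353-fold, adjusted p = 0.00351) and eIF3c (1.369-fold, adjusted p = 0.0013), and of eIF3d (1.421-fold, adjusted p = 0.000744). They were followed by eIF3b (1.491-fold, adjusted p = 0.00285) and eIF3g (1.521-fold, adjusted p = 7.97e-06). Without replicate 7, 6 of the 10 polysomal rises passed the test, and those of eIF3a, eIF3b, eIF3c and eIF3d did not (adjusted p from 0.082 to 0.169).

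In the dark, sucrose raised the steady-state level of 6 of the 10 mRNAs, namely eIF3a, eIF3b, eIF3c, eIF3d, eIF3e and eIF3i. Among all features 15.5% rose and 16.2% fell, and 26.2% of those at least as bright as the dimmest member. The rises ran from 0.32 ± 0.12 (eIF3i, adjusted p = 0.0415) to 0.60 ± 0.10 (eIF3c, adjusted p = 6.82e-05), and the median over the 10 was 0.33, against -0.00 over all features. eIF3c went from 9.78, 9.88 and 9.75 to 10.48, 10.47 and 10.27, so that no arrays of the 2 groups overlapped. The difference in eIF3c was as large as in the light.

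For eIF3g, eIF3h and eIF3k, the steady-state values with and without sucrose overlapped in the dark. eIF3h had 10.75, 10.81 and 10.76 in the dark control against 10.86, 10.86 and 10.78 in dark sucrose (0.06 ± 0.10, 95% interval -0.16 to 0.27). eIF3g (0.06 ± 0.08, interval -0.11 to 0.23) and eIF3k (-0.06 ± 0.12, interval -0.32 to 0.19) had differences of similar size. In 7 of the 10 mRNAs the sucrose arrays lay above the control arrays (19.7% of all features). In eIF3f, the 3 sucrose arrays lay above the control arrays, but the difference of 0.21 ± 0.12 did not pass (adjusted p = 0.239). The 6 calls fell to 1 when replicate 7 was left out (eIF3c) and to 3 when replicate 8 was, and to 3 when only the 6 arrays of this comparison were fitted.

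The polysomal levels of 8 of the 10 rose in the dark, against 16.3% of all features and 26.5% of the bright ones, and none passed 2-fold. eIF3c again had the largest rise (0.49 ± 0.10, adjusted p = 0.000636). It was followed by eIF3b (0.46 ± 0.14, adjusted p = 0.0142), eIF3i (0.44 ± 0.12, adjusted p = 0.00642) and eIF3e (0.43 ± 0.11, adjusted p = 0.0039). The MPN subunits did not pass. Their differences were 0.23 ± 0.12 in eIF3f (adjusted p = 0.186) and 0.23 ± 0.10 in eIF3h (adjusted p = 0.104).

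A single array weighed on these values. In dark sucrose, the polysomal levels of eIF3i were 7.93, 7.90 and 7.47, those of eIF3k 10.19, 10.22 and 9.69, and those of eIF3f 8.86, 8.78 and 8.37. Replicate 9 was thus the lowest in these 3 genes, and it was also the lowest in eIF3d, eIF3e, eIF3g and eIF3h. Its mean deviation over the 10 genes was -0.17, the farthest from 0 among the 24 arrays. Without it, all 10 polysomal levels passed the test in the dark, among them eIF3f (adjusted p = 0.0187) and eIF3h (adjusted p = 0.0139). Without all arrays of replicate 7 or of replicate 8, in contrast, 1 of the 10 passed (eIF3c), and 3 did when only the 6 arrays of this comparison were fitted.

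**Figure D2:**
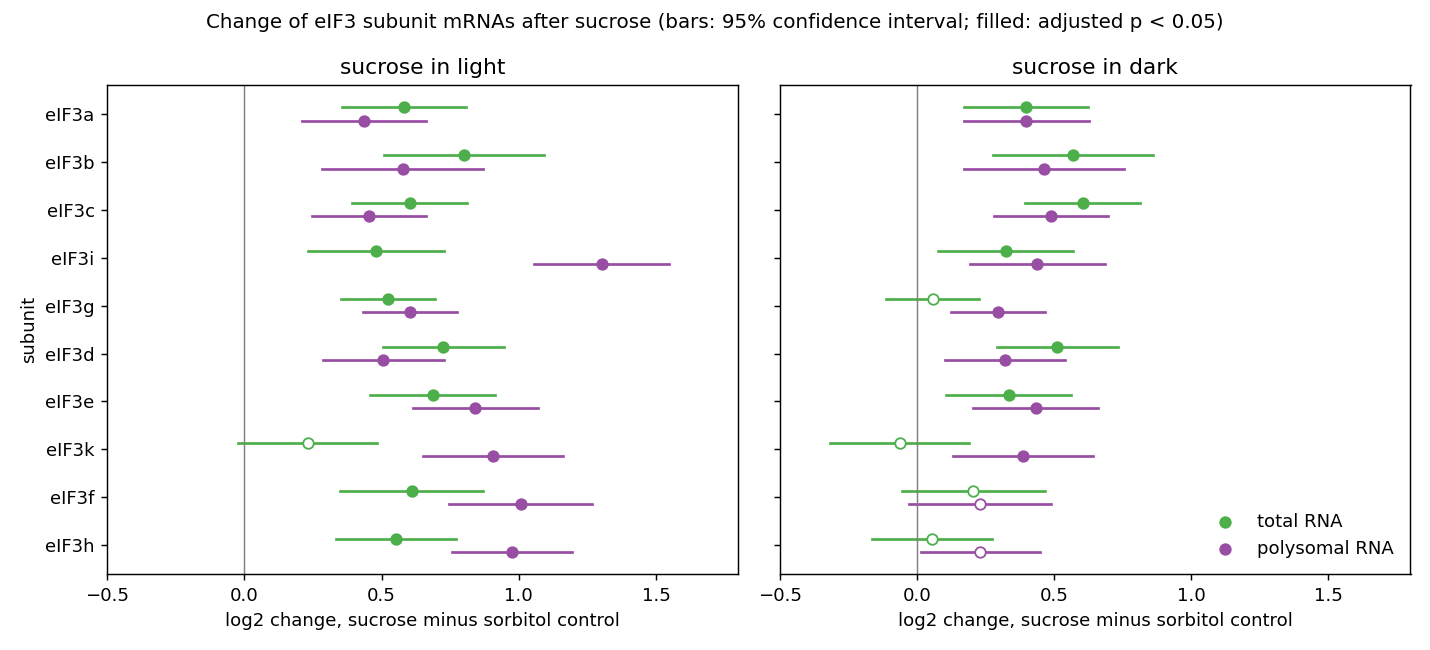
Change in log2 level (horizontal axis, sucrose minus sorbitol control) of each eIF3 subunit mRNA in light (left) and darkness (right), in total and polysomal RNA, with 95% confidence intervals of the fit; filled points have an adjusted p under 0.05. In the light, the polysomal change of eIF3i (1.30) lies above its steady-state change (0.48), while the core subunits a, b and c have similar changes in both panels.

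The sucrose effect in the dark was then compared with that in the light, through the difference between the 2 effects. In total RNA, it was called for eIF3g (-0.47 ± 0.12, adjusted p = 0.0142) and eIF3h (-0.50 ± 0.15, adjusted p = 0.0402), both with a smaller rise in the dark. Over all features, 4.09% were called in this direction and 4.85% in the other. The call of eIF3h was lost when any of 13 single arrays was left out (adjusted p up to 0.102 for single arrays), and both calls were lost without replicate 7, without replicate 8, and when polysomal arrays were kept out of the fit (adjusted p = 0.0653 and 0.0649).

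In polysomal RNA, the difference was called for eIF3i (-0.86 ± 0.17, adjusted p = 0.00204), eIF3f (-0.78 ± 0.18, adjusted p = 0.00668) and eIF3h (-0.74 ± 0.15, adjusted p = 0.00256), against 6.33% of all features in this direction, 5.21% in the other, and 12.5% of the bright ones. eIF3i rose by 1.30 in the light and by 0.44 in the dark. No single array left out ended these 3 calls. Without the polysomal array of replicate 9 in light sucrose, or without all arrays of replicate 9, there were 5 calls, but without all arrays of replicate 7 or of replicate 8 none of the 10 was called, although the differences of these 3 mRNAs were between -0.70 and -0.87 in the fits without replicate 7 or 8. eIF3k came close (-0.52 ± 0.17, adjusted p = 0.0563), and with the replicate number as a block it was called (adjusted p = 0.0162), as was eIF3e (adjusted p = 0.0499), which made 5 calls. The core subunits had differences near 0. They were -0.04 for eIF3a (95% interval -0.36 to 0.28), -0.11 for eIF3b (-0.53 to 0.30) and 0.04 for eIF3c (-0.26 to 0.33).

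Darkness itself was measured by comparing dark and light groups, which use the same control and sucrose arrays as the sucrose comparisons. Without sucrose, 1 of the 10 was called in total RNA (5.65% of all features were higher in the dark and 4.35% lower) and 1 in polysomal RNA (7.18% higher and 3.96% lower), which was eIF3h both times. Its steady-state level was 10.28, 10.42 and 10.38 in the light control and 10.75, 10.81 and 10.76 in the dark control, with no overlap (0.42 ± 0.10, adjusted p = 0.0139). The polysomal difference was 0.42 ± 0.10 as well (adjusted p = 0.0121). The steady-state call was lost without the light control array of replicate 7 (adjusted p = 0.0654) or the dark control array of replicate 8 (adjusted p = 0.05), and the polysomal call without the light control array of replicate 8 (adjusted p = 0.0678). Both were lost without replicate 7 and without replicate 8. Without the polysomal array of replicate 9 in dark sucrose, which is in neither group, 3 mRNAs were called in total RNA and 2 in polysomal RNA. In total RNA, the dark arrays lay above all light arrays in 6 of the 10 (16.9% of all features) and below them in 1, eIF3c (11.9%). Besides eIF3h, the 6 were eIF3i (0.35 ± 0.12, adjusted p = 0.0713), eIF3f (0.34 ± 0.12, adjusted p = 0.0909), eIF3k, eIF3g and eIF3e (0.23, 0.16 and 0.11), which missed the threshold. In polysomal RNA, 5 lay above (eIF3e, eIF3f, eIF3h, eIF3i and eIF3k, against 16.6% of all features) and 1, eIF3d, below (13.6%).

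With sucrose in both groups, the calls among the 10 were of lower levels in the dark. In total RNA, eIF3d (-0.42 ± 0.11, adjusted p = 0.00494) and eIF3g (-0.31 ± 0.08, adjusted p = 0.00689) were lower in the dark. These 2 of 10 are near the 14.6% of all features, and the share of the bright ones is not given here. Without the total RNA array of replicate 9 in light sucrose, 4 were called. In polysomal RNA, 6 of 10 were lower, against 15.1% of all features and 26.2% of the bright ones, and these were eIF3d, eIF3f, eIF3g, eIF3h, eIF3i and eIF3k. eIF3i fell by 0.62 on the log2 scale (SE 0.12, adjusted p = 0.000425), and the polysomal levels of eIF3g went from 9.56, 9.56 and 9.57 to 9.25, 9.26 and 9.08. Without the polysomal array of replicate 9 in dark sucrose, 2 of the 6 calls were made, as also without that of replicate 7 in light sucrose. Fitting only the 6 arrays of the comparison gave 1 call. Without all arrays of replicate 7 there were 0 calls in total and 1 in polysomal RNA, and without those of replicate 8 there were 0 and 2.

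Polysomal occupancy set the polysomal against the steady-state level within each culture. Since the arrays were scaled to similar medians, an occupancy of 0 marks the share on small polysomes of an mRNA of middle level, not an absolute share. An mRNA that moves between small and larger polysomes would also change in occupancy. Polysomal levels spread wider, with upper quartiles of 7.72 in total and 7.87 in polysomal RNA of dark control replicate 7. For bright features such as the 10, a typical occupancy can therefore lie above 0. The subunits differed in occupancy. eIF3g stood above 0 in each of the 12 cultures, with 0.77, 0.88 and 0.87 in the light control and 0.88, 0.94 and 0.94 in light sucrose. It was called in all 4 treatments, with means of 0.84, 0.92, 0.63 and 0.86 in the light control, light sucrose, dark control and dark sucrose. In these treatments 7.68%, 8.81%, 12.1% and 10% of all features were called higher in polysomal RNA. eIF3f was also above 0 in every culture and was called in 3 of the treatments, all except the light control (0.38, adjusted p = 0.0511).

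eIF3a lay below 0 in every culture. Its means were -0.26 (adjusted p = 0.128), -0.40 (adjusted p = 0.0173), -0.31 (adjusted p = 0.0472) and -0.31 (adjusted p = 0.0577) in the same order of treatments. In the light control, 5.75% of all features were called lower in polysomal RNA, and in light sucrose, dark control and dark sucrose 4.36%, 11.1% and 7.56%. The core subunits b and c were close to 0, with means between 0.00 and 0.23, none of them called, also with either block. eIF3k was called below 0 in both controls (light -0.41, adjusted p = 0.0273; dark -0.50, adjusted p = 0.00595). eIF3i was called below 0 in the dark control (-0.42, adjusted p = 0.0144), with -0.32 in the light control (adjusted p = 0.0834). Since both arrays of a culture deviated together, the fit with culture as a random block made more calls, 7 in the light control, 5 in light sucrose, 7 in the dark control and 4 in dark sucrose. In the light control it added eIF3f (adjusted p = 0.00853), eIF3a (0.0239), eIF3i (0.0255), eIF3h (0.0299) and eIF3d (0.048), and in dark sucrose eIF3a (0.00767) and eIF3i (0.025). It also added eIF3k in light sucrose (0.0382) and eIF3d (0.00679) and eIF3h (0.0223) in the dark control. The replicate number as a block added eIF3f in the light control (adjusted p = 0.0391), eIF3d in the dark control (0.0389) and eIF3a in dark sucrose (0.0476). In the fit without a block, the light control count of 2 fell to 1 without any of the 6 arrays of that treatment and rose to 4 without the polysomal array of replicate 9 in dark sucrose. The dark control count of 5 fell to 3 without any array of that treatment other than the polysomal one of replicate 7, and the dark sucrose count of 2 to 1 without either array of replicates 7 and 8.

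After sucrose in the light, the occupancy of eIF3i changed sign. It was -0.29, -0.36 and -0.30 in the light control cultures and 0.55, 0.57 and 0.39 in the light sucrose cultures, with no overlap. The change of 0.82 ± 0.17 was called (adjusted p = 0.0346), as were rises in 0.346% and falls in 0.0132% of all features. It was the 1 call among the 10. With the replicate number as a block, eIF3k was called too (2 calls), and when culture entered as a random block eIF3i, eIF3k and eIF3h were (3 calls), for which the arrays of a culture had an estimated correlation of 0.417. The size of the eIF3i change varied little when single arrays were left out (0.77 to 0.88), but the call was lost without any of 10 single arrays. These were the light control total RNA arrays of replicates 8 and 9, the light sucrose total RNA arrays of replicates 7, 8 and 9, the polysomal arrays of replicates 7 and 8 from each of these treatments, and the polysomal array of replicate 8 in the dark control (adjusted p from 0.0502 to 0.124). It was also lost without all arrays of replicate 7 or of replicate 8. Without the polysomal array of replicate 9 in dark sucrose, eIF3k was called as well (adjusted p = 0.0146).

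None of the other subunits passed the test. eIF3k had occupancies of -0.37, -0.51 and -0.37 in the light control and of 0.19, 0.27 and 0.33 in light sucrose, again without overlap (0.68 ± 0.17, adjusted p = 0.11). The MPN subunits had 0.42 ± 0.15 (eIF3h, adjusted p = 0.38) and 0.40 ± 0.18 (eIF3f, adjusted p = 0.652), both without overlap between cultures. eIF3h went from -0.16, -0.38 and -0.17 to 0.21, 0.19 and 0.17. The changes of eIF3a, eIF3b, eIF3c and eIF3d were below 0, between -0.14 and -0.23, with intervals that included 0, for example -0.64 to 0.19 in eIF3b.

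In the dark, no occupancy change was called in any of the 30386 features (1325 had an unadjusted p under 0.05, among them 1 of the 10). That subunit was eIF3k, with -0.55, -0.52 and -0.44 in the dark control against 0.08, 0.10 and -0.33 in dark sucrose (0.45 ± 0.17, unadjusted p = 0.0166, adjusted p = 0.943). The study does report a few genes with altered occupancy after sucrose in the dark. Its lists came from its own fit and joined small and large polysomes. The change of eIF3i was 0.12, with dark sucrose cultures at 0.04, -0.22 and -0.74, a range that covered all 3 dark control cultures. The difference between the dark and the light change of eIF3i was -0.71 ± 0.24 (adjusted p = 1.0, unadjusted p = 0.00734). A difference in its occupancy response between light and dark was thus not established. The polysomal array of replicate 9 in dark sucrose, the lowest in this gene, enters these values.

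**Figure D3:**
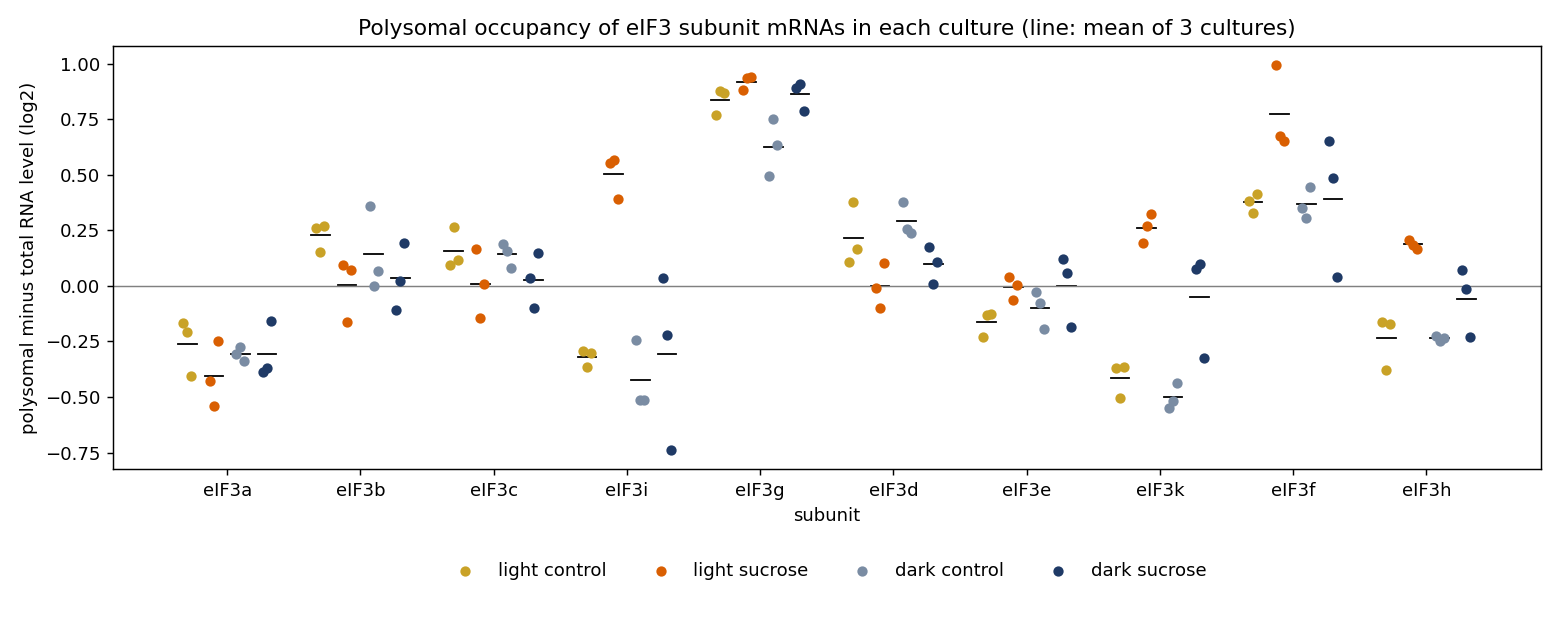
Polysomal occupancy (log2 polysomal minus log2 total RNA level, vertical axis) of each eIF3 subunit mRNA in the 12 cultures, by treatment; points of a group run from replicate 7 to 9 and lines are means of 3 cultures. The eIF3i cultures change from about -0.3 in the light control to between 0.39 and 0.57 in light sucrose, eIF3g stays above 0 and eIF3a below 0 in every culture.

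Over the 24 arrays, the levels of the subunits went together. The 45 pairs of mRNAs had a median Pearson correlation of 0.657, with 44 above 0 and a lowest value of -0.132. These correlations are across arrays that share cultures and treatments, and are a description only. Over the 8 group means, b, c and d were closest to each other (0.966 to 0.986), and so were h, i and k (0.906 to 0.944), while f and g had a correlation of 0.88. eIF3e followed the mean of the other 9 most closely (0.945) and eIF3g least (0.469). The lowest pair was eIF3a with eIF3g (-0.152). Each of the 10 had its highest group mean in light sucrose, in total RNA for eIF3a, eIF3d and eIF3e and in polysomal RNA for the other 7.

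Among 23351 other features with group means that ranged over at least 0.5, the 5 whose 8 group means were most like the mean of the 10 were AT1G79210 (Pearson correlation 0.999), AT4G36130 (0.997), AT3G04950, AT3G15080 and AT4G12600 (0.993 to 0.994). The reference table gave none of these loci a gene symbol. Their group means ranged over 0.913 (AT1G79210) to 2.07 (AT4G12600).

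Further loci were examined from a list of 11 drawn from general knowledge of eIF3, for which the reference table names 3. In the light, 9 of the 11 rose in total RNA (median 0.60) and 9 in polysomal RNA (median 0.87). In the dark, 4 and 5 rose. Of all features, 15.7% rose in total and 18.5% in polysomal RNA in the light, and 15.5% and 16.3% in the dark. Among the features at least as bright as the dimmest member, these shares were 26.8%, 31.4%, 26.2% and 26.5%. The dark counts are nearer to these shares than the light counts. The named ones are second copies of members. EIF3G2 (AT5G06000) rose by 0.85 in total RNA in the light (adjusted p = 0.000155), from 5.64 to 6.49, and by 0.95 in polysomal RNA. EIF3B-2 (AT5G25780) was among the dim features, with 3.29 in the light control and 4.17 in light sucrose (adjusted p = 0.00261). TIF3C2 (AT3G22860), the second copy of eIF3c, had mean levels between 4.44 and 4.64 in all 8 groups, and its steady-state changes were 0.02 in the light (adjusted p = 0.922) and 0.04 in the dark (adjusted p = 0.835). The largest rise of the list was that of AT5G25757, a locus without a name in the table, with 1.37 in total RNA and 1.49 in polysomal RNA in the light. AT2G46290, whose locus number is next to that of eIF3i, had a polysomal rise of 0.63 and an occupancy change of 0.07 in the light, where eIF3i had 1.30 and 0.82. AT5G44320, which the list gives as a further eIF3d locus, had mean levels of 7.91 in the light control and 8.73 in light sucrose in total RNA. In polysomal RNA they were 8.53 and 9.29. How far probes of such related copies also bind each other's RNA is not given in the sources used here, so values of b, c, d, g and i, for which the list holds a further locus, may include some of it.

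A list of other initiation factors was set beside the subunits. Of 42 features, 25 rose and none fell in total RNA in the light (median 0.52), and in the dark 19 rose and none fell (median 0.26). In polysomal RNA, 29 rose and 2 fell in the light, and 20 rose and 2 fell in the dark. Of all features, 15.7% rose and 12.8% fell in total RNA in the light, and 15.5% and 16.2% in the dark. The shares in polysomal RNA were 18.5% and 12.8% in the light, and 16.3% and 15.1% in the dark. EIF2 ALPHA (AT5G05470), a subunit of the factor that carries the initiator tRNA, had the largest steady-state rise in the light (1.22, adjusted p = 1.59e-07). eIF6A, which keeps free large subunits apart from small ones, had the largest in the dark (1.70, adjusted p = 3.32e-07). The scaffold EIF4G had changes of 0.07 and 0.04. The 2 that fell in polysomal RNA in the light were AT1G21160 (-0.33, adjusted p = 0.0239) and AT1G76720 (-0.40, adjusted p = 0.0289). No initiation factor of this list had a called occupancy change, where NCBP came closest (0.80, adjusted p = 0.0739).

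The ribosomal subunit that eIF3 binds was described by 93 features of 40S ribosomal proteins. In the light, 75 rose in total RNA (median 0.74) and 86 in polysomal RNA (median 1.04), and in the dark 33 (median 0.34) and 53 (median 0.47). Of the complexes that share PCI and MPN folds with eIF3, the COP9 signalosome had 9 of 10 subunits higher in total RNA in the light (median 0.55) and 4 of 10 in the dark (median 0.29). The proteasome lid had 13 of 13 in the light (median 0.68) and 10 of 13 in the dark (median 0.56), and none of its subunits was called for the difference between dark and light. Among 5 kinases and partners that act on initiation, none rose in total RNA in the light, when TOR, which drives growth upon nutrients, had -0.22 (adjusted p = 0.127). S6K2, a kinase downstream of TOR, rose by 1.61 in total RNA in the dark (adjusted p = 9.87e-06), where GCN2, which phosphorylates eIF2 alpha, was lower (-0.55, adjusted p = 0.000177). In polysomal RNA in the light, PK1 (AT3G08730, listed as an S6K) rose by 1.05 (adjusted p = 0.000209). RAPTOR1 was lower there (-0.34, adjusted p = 0.00539), and the other genes of this list were not called.

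**Figure D4:**
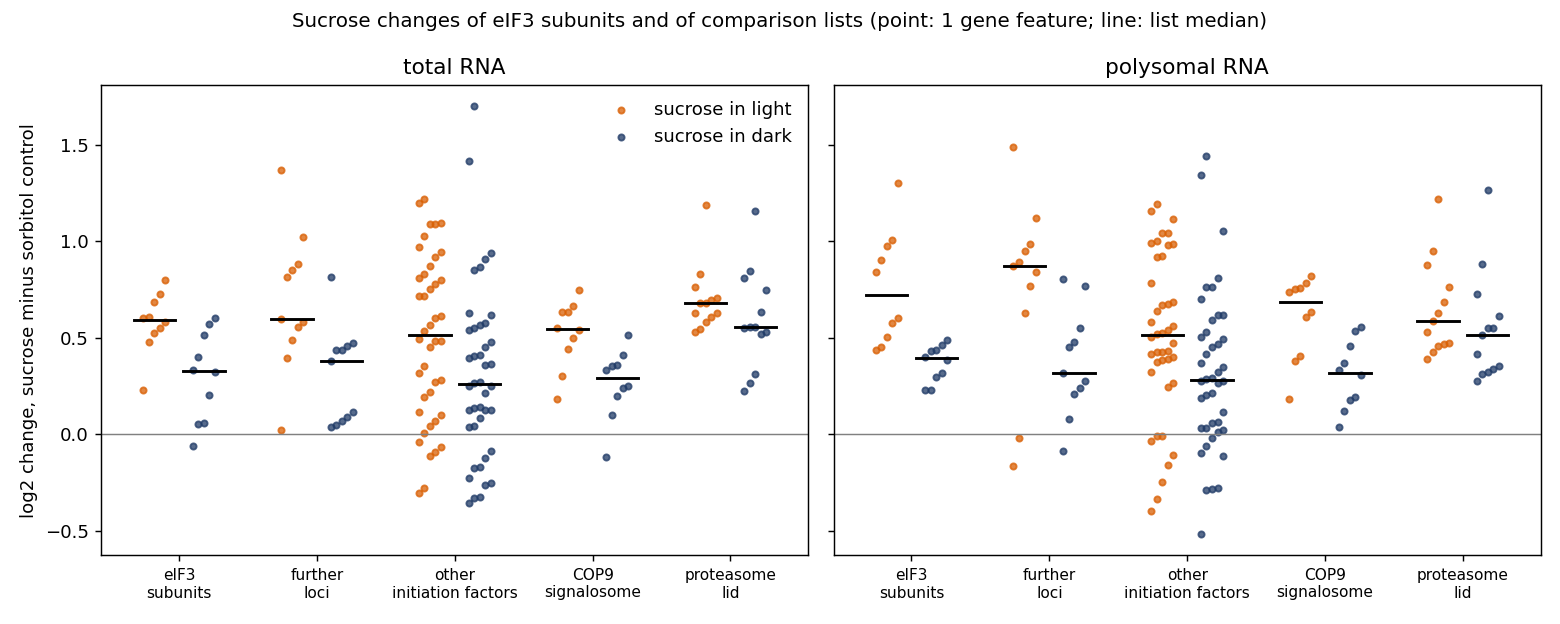
Change in log2 level (vertical axis, sucrose minus sorbitol control) in total RNA (left) and polysomal RNA (right) for the 10 eIF3 subunits, the 11 further loci, 42 features of other initiation factors, 10 COP9 signalosome and 13 proteasome lid subunits; each point is a gene feature and lines are list medians. The eIF3 medians are 0.59 and 0.72 in the light and 0.33 and 0.39 in the dark.

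Markers of tissues moved with the sucrose treatments too. All 5 green tissue markers fell in total RNA in the light (median -1.03), and 3 of 5 in the dark. Of all features, 12.8% fell and 15.7% rose in total RNA in the light, and 16.2% and 15.5% in the dark. The study reports photosynthesis genes, to which these markers belong, as repressed by sucrose in light and dark. Such a response of the genes cannot be told apart here from a change in the share of green tissue. The summed levels of the 5 markers were 14.59 to 14.78 on light control arrays and 13.38 to 13.91 on light sucrose arrays. For 5 root markers the summed level was 10.85 to 10.89 and 10.21 to 10.27 in the same groups, with 2 lower (CASP1 and SCR) and 1 higher (EXPA7). The sums are of unlogged levels, so this one mostly followed CASP1 and SCR, with 9.99 and 9.34 in the light control. EXPA7, TIP2;3 and SHV2 had 5.07, 6.29 and 6.50 there. The markers of this list thus did not move together. Of 5 markers of dividing cells, 0 were called after sucrose in total RNA (limma), and their summed levels overlapped, with 7.15 to 7.44 in the light control and 7.00 to 7.54 in light sucrose. In polysomal RNA, the dividing-cell marker CDKB1;1 rose with sucrose in the dark (0.64, adjusted p = 0.0367). Markers also moved with darkness. Without sucrose, the cytokinesis gene SYP111 was lower in the dark in total RNA (-0.60, adjusted p = 0.0275) and polysomal RNA (-0.96, adjusted p = 0.000876), as were CDKB1;1 in polysomal RNA (-0.82, adjusted p = 0.0222) and RBCS1A in total RNA (-0.54, adjusted p = 0.0471). With sucrose, 14.6% of all features were lower in the dark in total RNA and 15.1% in polysomal RNA. There, 1 marker of each list was lower in total RNA, and 2 green, 1 root and 1 dividing-cell marker in polysomal RNA. None of the markers was higher in any darkness comparison. The part of these shifts in the changes of the eIF3 mRNAs was not tested.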

How the data were processed

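The authors hybridized total RNA and small polysome RNA to AGRONOMICS1 arrays and made the deposited log2 values with RMA (background correction, normalization and summary per gene, in aroma.affymetrix), leaving non-polysomal arrays out. The values were used as deposited. All columns were mapped to a sample (0 were not), and groups came from the sample labels. Of 30757 rows, 371 array controls were left out, and 30386 gene features of 30174 loci were tested without a filter. A gene table of the TAIR10.1 assembly gave names only.

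With R 4.3.3 and limma 3.58.1, the 24 arrays entered 1 linear model that had a mean for each of 8 groups (lmFit and eBayes, 3.57 prior degrees of freedom), with Benjamini-Hochberg adjustment per comparison. It was tested on simulated data, with noise independent between arrays and changes put into light sucrose total RNA only. That test covered sucrose in the light in total RNA, not occupancy or the difference between dark and light. It left out the deviations that arrays of a culture or replicate number share. Figures were drawn with Python 3.11.15 and matplotlib 3.10.9. Each group holds 3 arrays, which limits the precision. Total and polysomal RNA of a culture came from the same extract, and replicate numbers come from the labels.

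The rule for the members takes no measured value, but it, the lists and the tests were chosen with earlier results of these data known. The genes named are the 10 members, loci of the same subunits, the largest called changes of each list or those against its direction, and the 5 features most like the members. Comparison lists come from general knowledge, and the 40S proteins from the study's own list. EIF4G, NCBP, TOR, PK1, RAPTOR1, AT5G25757, RCA, SYP111, CDKB1;1 and RBCS1A were named after their values were seen.

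Same-numbered arrays deviated together from their groups in every pair for the sucrose comparisons (correlations of 0.109 to 0.387) and for total against polysomal RNA of a culture (0.211 to 0.598). For darkness in total RNA the correlations ran from near 0 in replicate 7 (0.0147 without and 0.0689 with sucrose) up to 0.305. The replicate block and a culture block were therefore alternatives. Further ones were a fit restricted to the compared groups, a variance trend with a robust prior, filters at a mean of 5 or 6, quantile normalization, arrays set to the same median, adjustment over all comparisons together, a threshold of 0.01, and leaving out replicates or single arrays. Alternatives for changes of single members in occupancy and between dark and light were added after seeing the data.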

Additional observations from a re-analysis of the deposited data

Results flagged for a closer look

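The sucrose effect differed between dark and light, by the test of the difference, in total RNA for eIF3g (-0.47, with 0.52 in the light and 0.06 in the dark, adjusted p = 0.0142) and eIF3h (-0.50, with 0.55 and 0.06, adjusted p = 0.0402). In polysomal RNA it differed for eIF3f (-0.78, with 1.01 and 0.23, adjusted p = 0.00668), eIF3h (-0.74, with 0.97 and 0.23, adjusted p = 0.00256) and eIF3i (-0.86, with 1.30 and 0.44, adjusted p = 0.00204). In total RNA, eIF3k was higher with sucrose in 3 of 3 replicates in the light (0.23) and lower in 3 of 3 in the dark (-0.06), but the difference of -0.29 did not pass the test (adjusted p = 0.345). Groups of 3 arrays are too small for a test of single outlying arrays.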

How the results depend on the processing

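The counts of called eIF3 mRNAs for sucrose in the light (9 in total and 10 in polysomal RNA) stayed within 1.5 times under the 10 settings that kept all arrays. Fitting only the arrays of the groups compared gave, for sucrose in the dark, 3 in total and 3 in polysomal RNA, for darkness without sucrose 0 and 0, for darkness with sucrose 0 and 1, for the difference between dark and light in total RNA 0, and for polysomal against total RNA 3 in the dark control and 1 in dark sucrose. These fits use fewer samples. A mean of at least 5 gave 2 for darkness without sucrose in total RNA and 5 for the dark-light difference in polysomal RNA. At a mean of at least 6 these were 3 and 6, with 2 for darkness without sucrose in polysomal RNA, 4 for polysomal against total RNA in the light control and 2 for occupancy in the light. Quantile normalization gave 2, 5 and 4 for darkness without sucrose in total RNA, the dark-light difference in polysomal RNA and the light control, and setting arrays to the same median gave 4 in dark sucrose. The replicate block gave 2 for darkness without sucrose in total RNA, where same-numbered arrays had correlations of 0.0147 to 0.296. It gave 5 for the dark-light difference in polysomal RNA and 2 for occupancy in the light, and moved no other count by over 1.5 times. The culture block gave 7 in the light control, 4 in dark sucrose, 3 for occupancy in the light and 1 for occupancy in darkness with sucrose. Adjustment over all comparisons together gave 3 in the dark control, 2 for occupancy in the light and 1 for occupancy in darkness with sucrose. At an adjusted p under 0.01, the counts were 0 for darkness without sucrose in total and in polysomal RNA, 0 for the dark-light difference in total RNA, 5 for sucrose in the dark and 2 for darkness with sucrose in polysomal RNA, 1, 2 and 1 in the light control, dark control and dark sucrose, and 0 for occupancy in the light. The causes were not tested.

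Leaving out arrays or replicates gave 6 to 10 calls for sucrose in the light in total RNA, 6 to 10 in polysomal RNA, 1 to 6 and 1 to 10 for sucrose in the dark, 0 to 3 and 0 to 2 for darkness without sucrose, 0 to 4 and 1 to 6 for darkness with sucrose, 0 to 3 and 0 to 5 for the dark-light difference, and 0 to 2 for occupancy in the light. For polysomal against total RNA they gave 1 to 4 in the light control, 1 to 4 in light sucrose, 1 to 6 in the dark control and 1 to 3 in dark sucrose. Some uncalled changes near 0 changed sign. Quantile normalization gave -0.0138 for eIF3h (sucrose in the dark, total RNA), -0.0622 for eIF3a (darkness without sucrose, polysomal RNA), -0.0890 for eIF3c (dark-light difference, total RNA) and -0.00320 for eIF3a (occupancy, sucrose in the dark), and the same median gave -0.00819 and -0.00924 for these comparisons of eIF3a. With arrays left out, eIF3a ran from -0.0442 to 0.178 and eIF3b from -0.161 to 0.0470 for darkness without sucrose in total RNA, and in polysomal RNA eIF3a from -0.0426 to 0.0749, eIF3b from -0.213 to 0.0173 and eIF3g from -0.124 to 0.00194. For darkness with sucrose in polysomal RNA, eIF3a ran from -0.0711 to 0.0408. The dark-light difference ran from -0.0487 to 0.0702 for eIF3c in total RNA, and in polysomal RNA from -0.122 to 0.0742 for eIF3a, from -0.365 to 0.0388 for eIF3b and from -0.0843 to 0.159 for eIF3c. Occupancy after sucrose in the dark ran from -0.0878 to 0.0502 for eIF3a, from -0.232 to 0.0741 for eIF3b and from -0.114 to 0.240 for eIF3f. With 3 arrays per group, occupancy changes have SEs of 0.12 to 0.20.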
